A study of Mus musculus with 23 samples.

Results

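Translation efficiency, the ribosome footprints on an mRNA relative to the amount of that mRNA, was compared between mouse small intestinal organoids labelled Rptor fl/fl and organoids enriched for stem cells, called SCe. The comparison used every footprint (Ribo-seq) and mRNA (RNA-seq) library of these conditions, 13 of the 23 libraries in the series, which became 11 after technical libraries of 1 organoid line were summed. Of the 22350 genes in the files, 10747 had enough counts in both assays to be tested. The Rptor fl/fl footprint libraries came from 3 VillinCre.ERT2.Rptor.fl/fl.RPL22.HA organoids labelled untreated, and the Rptor fl/fl mRNA libraries from 2 VillinCre.ERT2.Rptor.fl/fl lines, also labelled untreated, with 2 technical libraries each. The label of these mRNA libraries does not name the RPL22.HA allele. The SCe libraries came from 3 VillinCre.ERT2.RPL22.HA organoids for each assay, kept in medium with 10 µM CHIR 99021 and 1.5 mM valproic acid. All lines were C57BL/6. For the footprints, organoids were given 100 µg/ml cycloheximide and ribosomes were pulled down through the haemagglutinin tag on Rpl22. The groups differed in genotype and in medium at once, so these cannot be told apart. Within Rptor fl/fl, the footprint and mRNA organoids also differ by label, which is not so within SCe. A difference between those Rptor fl/fl organoids cannot be told apart from a change of translation efficiency. VillinCre.ERT2 places a tamoxifen-inducible Cre under the villin promoter, which is active in intestinal epithelium. The labels of these libraries give no tamoxifen, although the methods of the study describe it for this allele.

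Raptor, the product of Rptor, is the subunit that brings substrates to the kinase complex mTORC1, which promotes translation, ribosome production and growth when amino acids and growth factors are present. mRNAs that start with a run of pyrimidines, the TOP mRNAs that encode ribosomal proteins and elongation factors, are known to depend on mTORC1 most closely. CHIR 99021 inhibits GSK3 and so activates Wnt signalling, and together with valproic acid, a histone deacetylase inhibitor, it keeps intestinal organoids rich in Lgr5-positive stem cells.

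Rptor, the floxed gene, checks the labels. Its mRNA was at 14.5 and 15.3 CPM (counts scaled to a fixed library total) in the Rptor fl/fl lines and at 61.0, 55.6 and 55.5 CPM in the SCe organoids, without overlap. The mRNA log2 change was -1.94 ± 0.29 (SE), with an adjusted p of 0.000713 in edgeR's quasi-likelihood test. The Rptor footprints did not follow. They were at 17.3, 18.8 and 16 CPM in the libraries labelled Rptor fl/fl and at 14.9, 41.7 and 21.1 CPM in SCe, overlapping, with a log2 change of -0.51 ± 0.28 and an adjusted p of 0.203. The log2 change of Rptor translation efficiency was 1.44, with a 95% interval from 0.57 to 2.30 and an adjusted p of 0.0767. The footprint libraries are therefore called "labelled Rptor fl/fl" in what follows. All log2 changes are Rptor fl/fl minus SCe, and every adjusted p is from the same edgeR test with Benjamini-Hochberg adjustment over all 10747 genes, at a threshold of 0.05. Rpl22, which carries the tag, had a translation efficiency change of -0.96 with an adjusted p of 0.275.

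Depth differed between the assays and groups. Each mRNA library held 23802944 to 67598878 reads, the footprint libraries labelled Rptor fl/fl held 5992941 to 8257457 reads on coding sequences, and those of SCe held 1106178 to 4242425. Some libraries stood apart. In SCe footprint library 1, the fifth of genes with the shortest coding sequences took 40.2% of the CPM, against 23.5 to 26.4% in the other footprint libraries, and the sum over cytosolic ribosomal protein genes was 142700 CPM against 66500 to 78250. SCe mRNA library 1 had a sum over enterocyte markers of 2784 CPM, against 12140 and 13450 in the other SCe mRNA libraries. The sum over Y-linked genes was 2.1 to 7.4 CPM in the libraries numbered 1 of every group and 90.5 to 239 CPM in all others. Immune markers summed to 3.4 to 7.0 CPM in every library. Markers of stroma and smooth muscle summed to 37.0 and 44.1 CPM in the Rptor fl/fl mRNA and to 128 to 528 CPM in the 3 other groups. In bulk libraries such as these, fewer cells of a type and less RNA per cell cannot be told apart.

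Translation efficiency was higher in the organoids labelled Rptor fl/fl for 119 genes (1.11% of those tested) and lower for 183 (1.7%). With the organoid number as a replicate block across the assays within each group, these counts were 15 and 12. Footprints were higher for 1351 genes (12.6%) and lower for 1641 (15.3%), and mRNA was higher for 1495 (13.9%) and lower for 1448 (13.5%). These percentages over all genes tested are the base rates for the counts within gene lists below. The median log2 change over all genes tested was -0.02 for translation efficiency, and its SD was 0.91, against 1.16 for footprints and 1.09 for mRNA. Across genes, which are not independent replicates and share the 11 libraries, the footprint and mRNA changes correlated with a Pearson r of 0.67 and a Spearman rho of 0.60.

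The higher and lower genes differed in which assay had moved. Of the 119 genes with higher translation efficiency, 98 had lower mRNA, and 34 had higher footprints. For 65 of them only the mRNA test passed and for 18 only the footprint test. Their median log2 change was 0.12 for footprints and -1.51 for mRNA. Of the 183 genes with lower translation efficiency, 115 had lower footprints and 90 had higher mRNA, with only the footprint test passed for 72 and only the mRNA test for 53. Their medians were -0.88 for footprints and 0.63 for mRNA. Most genes with higher translation efficiency thus had a fall of mRNA that the footprints did not share in full. The change was at least 2-fold for 99 of the 119 and for 159 of the 183.

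**Figure D1:**
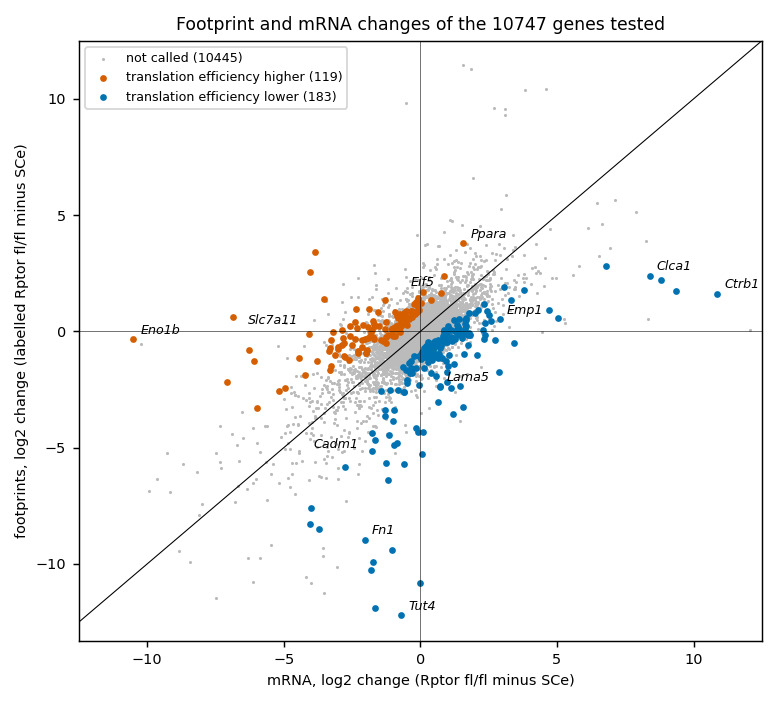
Log2 change of footprints (vertical axis) against log2 change of mRNA (horizontal axis), organoids labelled Rptor fl/fl minus SCe, for the 10747 genes tested; the diagonal is equal change. Genes called higher (orange, 119) lie above the diagonal and mostly left of zero on the mRNA axis, and genes called lower (blue, 183) lie below it.

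Genes of amino acid supply and stress that the transcription factor ATF4 controls were the gene list with the most higher calls. Of 33 ATF4 target genes tested, 5 were higher and 0 lower, 28 had a positive log2 change, and the list's median was 0.94 against -0.02 over all genes. This median came with lower mRNA: 18 of the 33 passed the test for lower mRNA, with a median log2 change of -0.88. The footprint median was -0.03, with 5 higher and 4 lower. Of all genes tested, 1.11% had higher translation efficiency, 13.5% lower mRNA, 12.6% higher footprints and 15.3% lower footprints. The 5 genes with higher translation efficiency were Slc7a11, Psat1, Psph, Mthfd2 and Trib3. The median of the list lay between 0.76 and 1.04 under the 25 alternative settings, but its number of genes called higher did not hold. With a replicate block 0 were higher (within each assay) or 1 (across assays), with an effective length offset 3 and with DESeq2 10. That number was 0 without Rptor fl/fl mRNA line 1, 2 without mRNA line 2, SCe mRNA library 2 or footprint library 1 or 3 labelled Rptor fl/fl, 3 without SCe mRNA library 3 or footprint library 2 labelled Rptor fl/fl, 8 without SCe footprint library 3 and 15 without SCe mRNA library 1.

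Slc7a11, the cystine import subunit of the cystine and glutamate exchanger (chr3:49892526-50443614, minus strand, mm10), had mRNA at 13.8 and 11.1 CPM in the lines labelled Rptor fl/fl against 134, 252 and 242 CPM in SCe. Its footprints were at 54.3, 45.9 and 53.9 CPM in the libraries labelled Rptor fl/fl and at 38.9, 31.5 and 90.9 CPM in SCe. The mRNA groups were apart by about an order of magnitude or more, and the footprint groups overlapped. The log2 change of Slc7a11 was -4.07 ± 0.45 for mRNA (adjusted p = 0.000123), -0.13 ± 0.35 for footprints (0.818) and 3.94 ± 0.54 for translation efficiency (0.00763). Psat1 and Psph, enzymes of the serine synthesis pathway, had translation efficiency changes of 2.09 ± 0.40 (adjusted p = 0.0269) and 2.41 ± 0.43 (0.0201), again with lower mRNA and no footprint change that passed. Mthfd2, the mitochondrial folate enzyme, was at 1.67 ± 0.37 (0.0428). Trib3, a pseudokinase induced in the stress response, differed from these 4 in that its footprints also rose, by 1.34 ± 0.27 (0.00482), with mRNA lower at -1.29 ± 0.27 (0.00498). Its footprints were at 26.0, 18.3 and 19.9 CPM against 6.93, 7.65 and 9.97 CPM.

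Atf4 itself, which lies outside the rule for named genes and was looked up after its values were seen, had more footprints on a near-equal mRNA level. Its footprints were at 76.1, 53.8 and 57.1 CPM in the libraries labelled Rptor fl/fl against 13.3, 23.0 and 28.3 CPM in SCe, without overlap, a log2 change of 1.50 ± 0.24 (adjusted p = 0.00137). The Atf4 mRNA was at 173 and 168 CPM against 158, 139 and 128 CPM (0.26 ± 0.23, adjusted p = 0.433). The translation efficiency change of Atf4, 1.23 with a 95% interval from 0.50 to 1.97, missed the threshold (adjusted p = 0.0753). Atf4 is the textbook case of an mRNA whose translation is set by short upstream reading frames. Among the 18 mRNAs listed as controlled in that way, 0 were higher, 1 was lower (Tmem184c, described below) and the median was 0.15.

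Several genes with higher translation efficiency combined low mRNA with footprints that were lower by less or overlapped. Ckb, the brain-type creatine kinase, had mRNA at 37.9 and 37.1 CPM against 332, 401 and 418 CPM and footprints at 597, 596 and 591 CPM against 896, 1451 and 873 CPM. Both assays were lower without overlap, the mRNA by -3.35 ± 0.25 (adjusted p = 2.16e-05) and the footprints by only -0.85 ± 0.20 (0.00947), which left a translation efficiency change of 2.5 ± 0.30 (0.00447). Ndrg2, a differentiation-related gene, had mRNA at 4.32 and 4.00 CPM against 36.8, 45.3 and 38.9 CPM, overlapping footprints, and a translation efficiency change of 2.90 ± 0.31 (0.0034). Ada, adenosine deaminase, named after its values were seen, had mRNA at 4.21 and 4.66 CPM against 26.7, 27.2 and 25.1 CPM. Its footprints, at 55.3, 50.6 and 51.2 CPM against 49.1, 75.7 and 59.6 CPM, overlapped, and its translation efficiency change was 2.35 ± 0.23 (0.00278).

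Other genes among the 10 with the highest fitted changes were Moxd1 (4.84 ± 0.87), the collagen lysyl hydroxylase gene Plod1 (2.51 ± 0.46), Rcor2 (2.61 ± 0.59), Pla2g5 (2.55 ± 0.43) and the linker histone gene Hist1h1c (3.18), all with lower mRNA. For Hist1h1c, 28.4% of the 28-base windows of its coding sequence also occur in another gene, so its reads could be split between copies. The same holds more strongly for the highest values. Eno1b had 88.4% of its windows in another gene and Defa20 100%, and their changes of 10.18 and 6.62 are uncertain for that reason. The tested histone genes as a group had a median of 0.70, with 1 of 20 higher, and their canonical mRNAs are known to lack a poly(A) tail.

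A smaller set gained footprints. Eif5, the GTPase-activating factor of translation initiation that helps to select the start codon, had mRNA at 552 and 508 CPM against 513, 615 and 560 CPM, with overlapping groups. Its footprints were at 369, 382 and 411 CPM in the libraries labelled Rptor fl/fl and at 169, 195 and 210 CPM in SCe, without overlap. The log2 change of Eif5 was 1.02 ± 0.14 for footprints (adjusted p = 0.000614) and -0.09 ± 0.15 for mRNA (0.714), and its translation efficiency change of 1.1 ± 0.20 passed the threshold (0.0233). Eif1ax, which encodes a factor that scans for the start codon, was also higher (0.93 ± 0.21, adjusted p = 0.0428), with lower mRNA (-0.74 ± 0.15). These were the 2 of 35 initiation factor genes called, with 0 lower. With either replicate block or an effective length offset 0 were called, and with DESeq2 6 were higher and 1 lower. In that list 29 log2 changes were positive, and the median was 0.32, but 0 were called without either Rptor fl/fl mRNA line, SCe mRNA library 2 or 3, or footprint library 2 or 3 labelled Rptor fl/fl. Gsta3, a glutathione transferase of the NRF2 programme, had footprints at 344, 390 and 335 CPM against 80.5, 51.9 and 69.6 CPM and mRNA at 134 and 130 CPM against 50.8, 101 and 68.0 CPM, so that both assays were higher and the translation efficiency change was 1.54 ± 0.35 (0.0447). In the list of 31 glutathione and NRF2 target genes, 2 were higher, Gsta3 and Slc7a11, and 1 was lower, Ftl1, with 86.7% of its windows in another gene, and the median was 0.27.

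**Figure D2:**
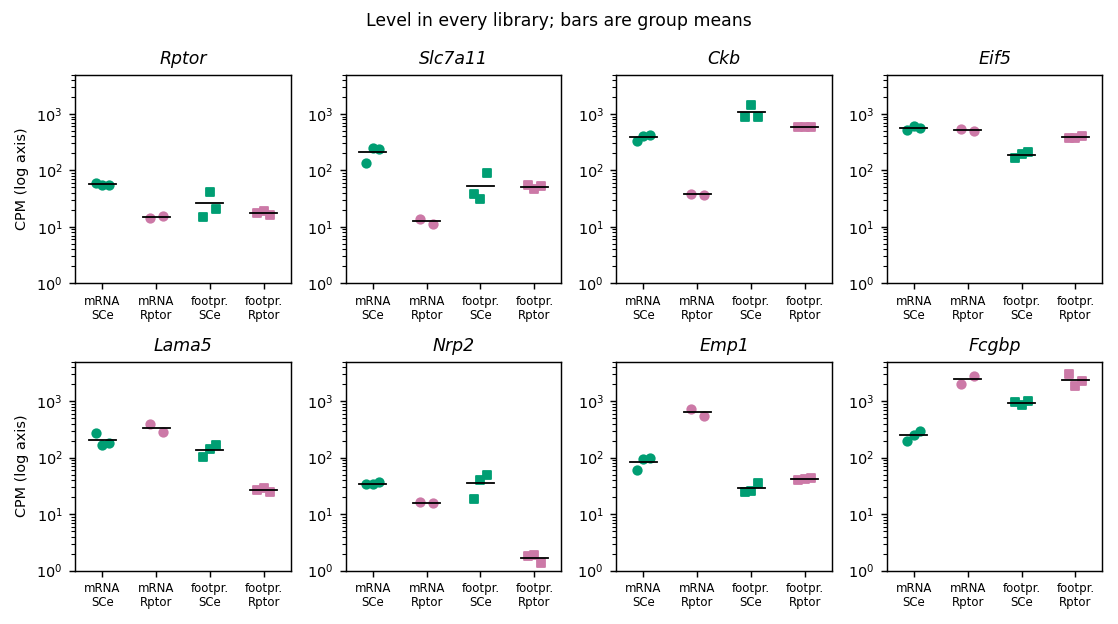
CPM (log axis) of 8 genes in each of the 11 libraries, as points for mRNA (circles) and footprints (squares) of SCe (green) and organoids labelled Rptor fl/fl (pink), with bars at the group means. Slc7a11 shows low mRNA in Rptor fl/fl with overlapping footprints, Ckb shows mRNA that is lower by more than its footprints, Eif5 shows high footprints on equal mRNA, and Lama5 and Nrp2 show low footprints.

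The mRNAs most closely tied to mTORC1 did not pass the test in either direction. Of 82 cytosolic ribosomal protein genes, 0 were higher and 0 lower. Their median log2 change was -0.41, with 77 negative, but this value moved with 1 library: it was -0.07 without SCe footprint library 1, the library with the high sum over these genes. Over the alternative settings it ran from -0.57 to 0.03. The 27 other TOP mRNAs had a median of -0.08, with 0 called, and -0.04 without that library. The first bases of 4 transcripts from these lists with long opening pyrimidine runs are shown, from the GENCODE vM21 transcripts of mm10. They were taken from members that start with C and have under 5% of windows in another gene. The run is shown because it is the feature mTORC1 is known to act through. The capitals mark the run.
Pabpc1: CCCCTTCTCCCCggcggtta
Rack1: CTTTTTCTCCacagggtcgt
Eif3f: CTCTTTCTCggcaagatggc
Rpl30: CCTTTCTCgctccccggcca
The translation efficiency changes of these genes were -0.02 for Pabpc1 (poly(A)-binding protein), -0.50 for Rack1 (a scaffold on the small subunit), -0.85 for Eif3f (an initiation factor subunit) and -0.36 for Rpl30 (a protein of the large subunit), none of which passed. A start with C and at least 4 further pyrimidines was annotated for 230 of 10729 genes with a matched transcript (2.14%) and for 8 of the 82 ribosomal protein genes (9.76%), so the annotated starts hold this feature for few known TOP mRNAs. Genes with such a start had a median change of -0.10 against -0.02 for those without. Of the genes with it, 5 were called higher and 5 lower, 2.17% each, against 1.11% and 1.7% of all genes tested.

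Among the other parts of the translation and growth machinery, the 21 aminoacyl-tRNA synthetases had 0 called and a median of 0.47, the 78 mitochondrial ribosomal proteins 0.00 (0.28 without SCe footprint library 1), the 34 proteasome genes 0.21 and the 30 chaperones 0.27. The 13 mitochondrially encoded mRNAs, whose ribosomes carry no Rpl22, had a median of 1.27 with 0 called, on footprint sums of only 251 to 1130 CPM. The 76 nuclear genes of the respiratory chain and ATP synthase had a median of -0.11 (0.21 without SCe footprint library 1), also with 0 called. Of 22 genes of core glycolysis and lactate tested, 2 were higher and 0 lower, with a median of 0.35. Their median was -0.29 for footprints and -0.71 for mRNA. With either replicate block, 0 of these glycolysis genes were called, and with DESeq2 6 were higher and 2 lower. Of 37 genes of the cell cycle and DNA replication, 2 were higher, the mitotic cyclin gene Ccnb1 (1.12 ± 0.24, adjusted p = 0.0385) and Rrm2, a ribonucleotide reductase subunit (0.74 ± 0.17, adjusted p = 0.0428), and the median was 0.24. In the mTOR pathway list, 1 of 38 genes was higher and 1 lower, with a median of -0.06, which changed sign in 7 of the 25 alternative settings. The higher gene was Sesn3, an inhibitor of mTORC1, at 1.35 ± 0.25 (adjusted p = 0.0233), with mRNA at 24.0 and 29.1 CPM against 143, 124 and 118 CPM. The lower gene was Flcn, folliculin, which acts on the Rag GTPases at the lysosome, at -1.15 ± 0.26 (0.0429), with mRNA at 51.1 and 55.9 CPM against 15.3, 19.5 and 16.5 CPM. In both cases the mRNA had moved further than the footprints.

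Of the 183 genes with lower translation efficiency, the 115 that also had lower footprints include those described next. Lama5, the laminin alpha 5 chain of the epithelial basement membrane, kept its call under each of the 25 alternative settings, with a highest adjusted p of 0.0488, and it was the only gene of the 302 to do so. Its mRNA was at 398 and 281 CPM in the lines labelled Rptor fl/fl against 272, 170 and 183 CPM in SCe. Its footprints were at 26.5, 29.5 and 25 CPM against 104, 141 and 170 CPM. Both assays were without overlap, in opposite directions, although the mRNA change of 0.71 ± 0.25 did not pass (adjusted p = 0.055). The footprint change of Lama5 was -2.36 ± 0.24 (0.00016), and its translation efficiency change was -3.07 ± 0.34 (0.00408), with a 95% interval from -3.82 to -2.31. Lamb2, the laminin beta 2 chain, named after its values were seen, was at -1.99 ± 0.35 (0.0183).

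Cadm1, an adhesion molecule of the immunoglobulin superfamily, had footprints at 1.67, 2.07 and 2.32 CPM in the libraries labelled Rptor fl/fl against 36.3, 63.8 and 59.1 CPM in SCe, and mRNA at 19.3 and 14 CPM against 55.3, 51.8 and 49.9 CPM. Both were lower without overlap, the footprints by -4.70 ± 0.27 and the mRNA by -1.65 ± 0.23, and the translation efficiency change was -3.04 ± 0.34 (adjusted p = 0.00408). It was named after its values were seen. Nrp2, neuropilin 2, a receptor for semaphorins and VEGF, had footprints at 1.83, 1.91 and 1.34 CPM against 18.7, 40.8 and 48.7 CPM and mRNA at 16.1 and 15.6 CPM against 33.7, 34.2 and 36.7 CPM. Its translation efficiency change was -3.31 ± 0.44 (0.00715). Its ligand gene Sema3c was lower as well, at -4.22 ± 0.70 (0.0146), with near-equal mRNA (-0.10 ± 0.46) and footprints at 3.83, 4.14 and 2.44 CPM against 24.5, 48.5 and 123 CPM.

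Fn1, fibronectin, had 96, 118 and 936 footprint counts in SCe against 1, 4 and 0 in the organoids labelled Rptor fl/fl. Its mRNA was at 17.2 and 12.8 CPM against 37.8, 64.0 and 83.5 CPM, and the fitted translation efficiency change was -6.92 ± 1.04 (adjusted p = 0.00917). Thbs1, thrombospondin 1, was at -3.56 ± 0.80 (0.0428). Fn1 and Thbs1 are also made by stroma, and the stroma and smooth muscle markers moved too: their sum was 129 to 160 CPM in the footprints labelled Rptor fl/fl and 197 to 528 CPM in those of SCe. The part of these markers in the result was not tested.

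Tut4, which encodes a uridylyltransferase that tags RNA ends, had 0 footprint counts in all 3 libraries labelled Rptor fl/fl against 24, 37 and 106 counts in SCe, while its mRNA was at 30.0 and 17.0 CPM against 34.2, 40.4 and 40.8 CPM. Set against 3 counts over the group, its footprints were at least 157-fold lower. Another 5 genes with lower translation efficiency were at 0 there: Arhgef4, Cyp1b1, Enah, Jcad and Spata6, with footprints at least 24.1-fold to 123-fold lower. For these genes the fitted change depends on a prior count and is not given. Cstf2t (-5.33 ± 1.12), Rbpms (-3.92 ± 0.58), Ift57 (-3.60 ± 0.68) and Tmem184c (-3.98 ± 0.73) were also among the lowest, all with few footprints in the organoids so labelled.

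Other lower genes had high mRNA that the footprints did not match, and genes of the fetal-like or regenerative programme of the intestinal epithelium were among them. Of 25 such genes tested, 6 were lower (among them Il33, Emp1, Tinagl1, Anxa5 and Krt7) and 1 was higher (Ly6e), and 23 of the 25 log2 changes were negative. The median change was -1.54 for translation efficiency, -0.37 for footprints and 1.37 for mRNA, and 14 had higher mRNA while 2 had higher footprints. Among all genes tested, 13.9% had higher mRNA, 12.6% higher footprints and 1.7% lower translation efficiency. Without SCe footprint library 1 the translation efficiency median of the list was -0.86. With 1 transcript per gene or a replicate block within each assay, 0 fetal-like genes were lower. With an effective length offset 1 was lower, with the block across assays 2, and with DESeq2 12. The number of lower fetal-like genes was 1 without Rptor fl/fl mRNA line 1, SCe mRNA library 2 or 3, or footprint library 2 or 3 labelled Rptor fl/fl, 2 without footprint library 1 so labelled, 3 without mRNA line 2 and 13 without SCe mRNA library 1. Emp1, a tetraspan epithelial membrane protein, had mRNA at 729 and 544 CPM in the lines labelled Rptor fl/fl against 61.4, 94.2 and 99.0 CPM in SCe. Its footprints were at only 40.0, 41.1 and 44.5 CPM against 25.1, 25.5 and 35.3 CPM, so both assays were without overlap in the same direction but by unequal amounts. The log2 change of Emp1 was 2.90 ± 0.22 for mRNA (adjusted p = 2.17e-05), 0.52 ± 0.22 for footprints (0.105) and -2.39 ± 0.31 for translation efficiency (0.00715). With 1 transcript per gene, the translation efficiency change of Emp1 did not pass.

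Krt7, a keratin of simple epithelia, had the same pattern at a smaller scale, with mRNA at 650 and 434 CPM against 226, 189 and 215 CPM, overlapping footprints, and a translation efficiency change of -1.19 ± 0.27 (adjusted p = 0.0428). Epha2, an ephrin receptor kinase named after its values were seen, had mRNA at 167 and 108 CPM against 42.9, 35.4 and 38.4 CPM and overlapping footprints (-1.99 ± 0.26, adjusted p = 0.00715). Il33, the alarmin cytokine, was different: its mRNA groups overlapped, and it had 3, 2 and 1 footprint counts against 7, 5 and 38, with a change of -4.44 ± 0.83 (0.0233). Ly6e, which encodes a GPI-anchored surface protein, went the other way at 2.34 ± 0.48 (0.0345), with mRNA at 43.9 and 38.8 CPM against 423, 262 and 332 CPM. The list of 15 YAP target genes had a median of -1.06, with 0 higher and 1 lower, Ajuba (-2.33 ± 0.40, adjusted p = 0.0166), which encodes a LIM protein of the Hippo pathway. With a mean of at least 10 CPM required in each assay, the YAP median was -0.41 with 0 called, and without SCe footprint library 3 it was -0.63.

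Among the genes the study named for this comparison, 5 were tested and none passed for translation efficiency. The change was 0.96 for Lgr5 (adjusted p = 0.189), 0.68 for Axin2 (0.479), -0.83 for Mex3a (0.474), -2.27 for Ly6a (0.27) and -0.02 for Map3k20 (0.988). Lgr5 and Axin2 are Wnt target genes of stem cells, and Mex3a marks a slow-cycling stem cell state. Ly6a, or Sca-1, marks regenerating epithelium, and 30.9% of its windows occur in another gene. Its SCe footprints ran from 7.65 to 134 CPM, and its 95% interval from -4.65 to 0.11. Map3k20, the kinase that senses collided ribosomes, had the narrowest interval of the 5 that spans zero, from -0.66 to 0.63. Spp1 and Gja1 were left untested for low footprints. Their mRNA was at 16.1 and 3.90 CPM and at 11.9 and 5.37 CPM in the lines labelled Rptor fl/fl, and at most 0.623 and 5.89 CPM in SCe, while Spp1 footprints were at most 2.67 CPM in every library. Among all 30 adult stem cell genes tested, 2 were higher, Nav1 (2.09 ± 0.44) and the Wnt effector Tcf7 (1.49 ± 0.32), 0 were lower, and the median was 0.01. With 1 transcript per gene, either replicate block or an effective length offset, 0 were higher. The median changed sign in 11 of the 25 alternative settings: it was -0.22 with 4 lower without SCe mRNA library 1, -0.30 with 2 lower without SCe footprint library 1, and -0.53 with 9 lower without the libraries numbered 1 of every group. The number of higher stem cell genes was 0 without either Rptor fl/fl mRNA line, SCe mRNA library 2 or 3, or any of the 3 footprint libraries labelled Rptor fl/fl.

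Goblet cell genes had higher mRNA and, by less, higher footprints in the organoids labelled Rptor fl/fl. Of 17 goblet cell genes, 13 had higher mRNA (median log2 change 2.95) and 9 had higher footprints (median 1.52). For translation efficiency, 3 were lower, 0 were higher and the median was -0.90. The shares over all genes tested were 13.9% for higher mRNA, 12.6% for higher footprints and 1.7% for lower translation efficiency. With either replicate block 0 goblet cell genes were lower, and with DESeq2 8 were. The number of lower goblet genes was 1 without either Rptor fl/fl mRNA line, footprint library 3 labelled Rptor fl/fl or SCe footprint library 3, and 5 without SCe mRNA library 1 or SCe footprint library 1 or 2. Fcgbp, a mucus protein, had mRNA at 2039 and 2854 CPM against 197, 254 and 294 CPM and footprints at 3050, 1902 and 2242 CPM against 980, 846 and 996 CPM. Both rose without overlap, the mRNA by 3.30 ± 0.25 and the footprints by 1.35 ± 0.23, and the translation efficiency change was -1.95 ± 0.33 (adjusted p = 0.0166). Of its windows, 16.6% occur in another gene.

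Clca1 (-6.00 ± 0.88, adjusted p = 0.00901) and Zg16 (-3.96 ± 0.79, 0.0308), also secreted goblet cell products, had mRNA close to 0 in SCe: 1, 11 and 13 counts for Clca1 and 8, 106 and 81 counts for Zg16. Muc2, the gel-forming mucin, missed the threshold at -3.27 ± 0.78 (0.0527). Paneth cell genes did not share this pattern. Of 17 tested, 3 had higher and 4 lower mRNA (median -0.24) and 0 had higher or lower footprints (median 1.15). For translation efficiency 1 was lower, Mptx1, and the median was 0.92, from 0.25 to 1.65 over the alternative settings. Among genes with under 5% of windows in another gene, the Paneth median was 0.40, with 1 higher and 0 lower. The 19 enteroendocrine genes had a median of 1.06 for mRNA, 1.36 for footprints and -0.37 for translation efficiency, with 0 called for the last. Ctrb1, chymotrypsinogen, the 1 of 4 pancreatic acinar genes called, had 0, 0 and 1 mRNA counts in SCe against 805 and 1593 in the Rptor fl/fl lines, and 4, 0 and 12 footprint counts against 24, 40 and 67. In genes like these the SCe ratio of footprints to mRNA rests on a handful of counts, and a different share of secretory cells in the organoids of the 2 assays cannot be told apart from a change within cells.

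Lysosomal genes had lower footprints. Of 41 genes of the V-ATPase and the lysosome, 30 had lower footprints (median log2 change -0.76) and 13 lower mRNA (median -0.27). Over all genes tested, 15.3% had lower footprints, 13.5% lower mRNA and 1.7% lower translation efficiency. The translation efficiency change was negative for 38 of the 41, with a median of -0.48, and 5 were lower and 0 higher. The median stayed between -0.62 and -0.39 under the 25 alternative settings, whereas the number called lower went to 0 in 11 of them: without either Rptor fl/fl mRNA line, SCe mRNA library 2 or 3, or any of the 3 footprint libraries labelled Rptor fl/fl, with each replicate block, with 1 transcript per gene and with an effective length offset. It was 9 without SCe footprint library 1. Ctsl, cathepsin L, a lysosomal protease, had footprints at 64.3, 57.2 and 58.0 CPM against 259, 338 and 441 CPM and mRNA at 104 and 80.3 CPM against 181, 225 and 197 CPM. Both were lower without overlap, by -2.54 ± 0.20 and -1.12 ± 0.22, and the translation efficiency change was -1.41 ± 0.28 (adjusted p = 0.0308). Cd63, a tetraspanin of late endosomes, was at -0.85 ± 0.20 (0.046), with footprints at 335, 316 and 303 CPM against 453, 443 and 498 CPM and mRNA without a change that passed. Atp6v0a1, a membrane subunit of the proton pump named after its values were seen, was at -1.26 ± 0.29 (0.0485). Of 23 enzymes that glycosylate membrane and secreted proteins, 2 were lower and 0 higher, with a median of -0.20. These included Fut2, the fucosyltransferase of mucosal glycans, at -3.07 ± 0.41 (0.00715), with 21.1% of its windows in another gene.

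**Figure D3:**
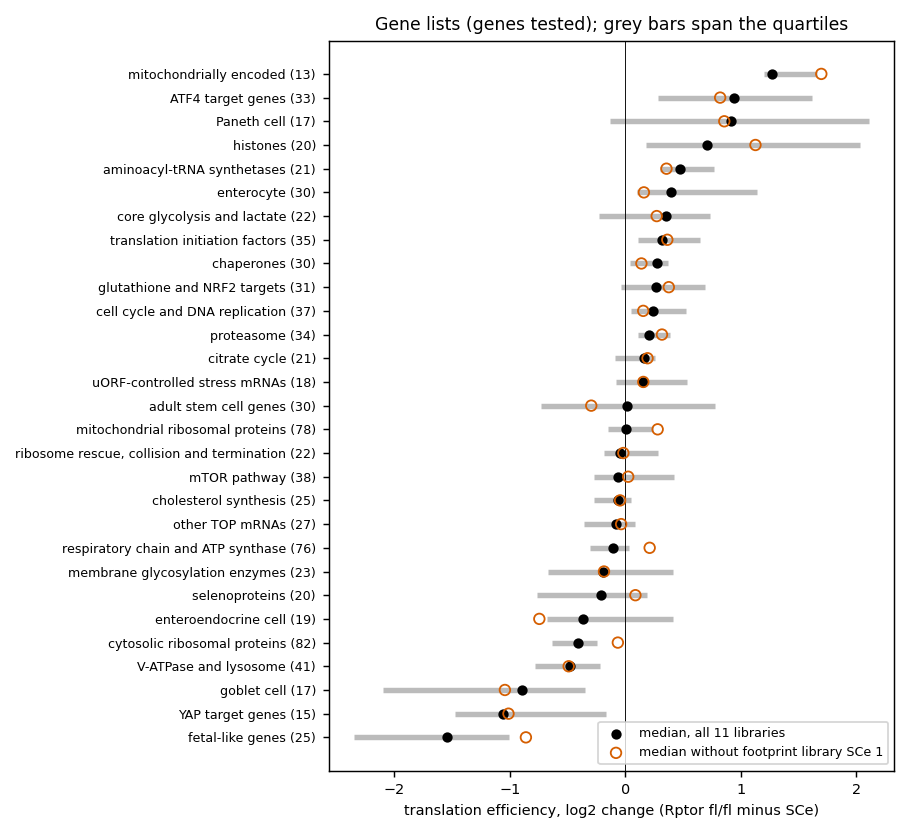
Median log2 change of translation efficiency (organoids labelled Rptor fl/fl minus SCe) of each gene list, with the number of genes tested in brackets, over all 11 libraries (black points) and without SCe footprint library 1 (open points); grey bars span the quartiles. Fetal-like, YAP target, goblet cell and lysosomal lists lie below zero and ATF4 targets above it with and without that library, whereas the cytosolic ribosomal proteins move from -0.41 to -0.07.

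What the lower genes shared was looked for in their annotated transcripts. A hydrophobic stretch, defined as a window of 19 residues with a mean Kyte-Doolittle hydropathy of at least 1.6, as in signal peptides and membrane segments, was encoded by 108 of the 183 lower genes (59.0%). It was encoded by 39 of the 118 higher genes with a matched transcript (33.1%) and by 3393 of all 10729 (31.6%). Over all genes the median change was -0.17 where a stretch lay beyond residue 35, -0.10 where it lay only in the first 35 residues and 0.04 where there was none, and the medians without SCe footprint library 1 were -0.18, -0.15 and 0.05. GC at the third codon position had a median of 66.0% in lower genes, 59.2% in higher genes and 60.1% over all. From the lowest to the highest bin of genes by this measure (5 bins of genes), the median change went through 0.17, 0.09, -0.03, -0.14 and -0.26, and the number of lower calls through 17, 21, 37, 44 and 64. The number of higher calls, at 23, 22, 32, 22 and 19, had no such order. Bins by mean footprint CPM were ordered too. From the lowest to the highest, their median change was -0.18, -0.13, -0.04, 0.04 and 0.10, with 45, 44, 40, 31 and 23 lower calls. The median footprint level was 33.4 CPM in the lowest GC bin and 21.1 CPM in the highest, and these features were not separated. The medians of the called genes were not stable: higher genes had the higher GC without SCe mRNA library 2 (64.6% against 62.2% in lower genes) or 3 (64.6% against 62.0%), and without footprint library 1 (66.1% against 63.4%) or 3 (66.2% against 64.0%) labelled Rptor fl/fl.

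Coding length behaved otherwise. The medians by bin of length went from -0.08 for the shortest to 0.05 for the longest genes with all libraries and from 0.15 to -0.10 without SCe footprint library 1, so the order turned round with 1 library. Untranslated regions differed little in length: the 5′ region had a median of 163 bases in higher genes, 166 in lower genes and 161 over all, and the 3′ region 1093, 1195 and 959 bases. No test was run on these features, since genes share libraries and the features go together.

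**Figure D4:**
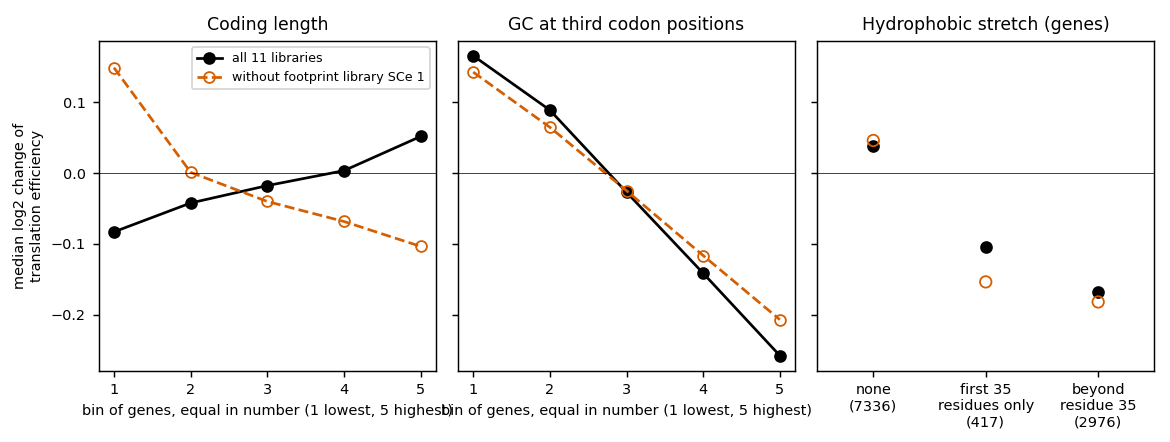
Median log2 change of translation efficiency over genes in 5 equal bins of coding length (left), in 5 equal bins of GC at the third codon position (middle) and by hydrophobic stretch (right, number of genes in brackets), over all 11 libraries (black) and without SCe footprint library 1 (orange, open). The order by GC and by hydrophobic stretch is the same in both, and the order by coding length turns round.

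The codons at the middle of the most hydrophobic window are shown for 3 lower and 4 higher genes, taken from those with the smallest adjusted p. Only genes with a mean of at least 10 CPM in each assay and under 5% of windows in another gene were eligible. The layout lets hydrophobicity and third-position GC be read together, and not every gene shown has these features. The sequences are from the GENCODE vM21 coding sequences, 5′ to 3′, with G or C at the third codon position in capitals. The first 3 had lower and the last 4 higher translation efficiency.
Cadm1: gtCgtagcCgtGgtGgtGtttgcCatGcta
Lama5: ctGgtCgaGgctgaaggtgtactCttGgaC
Tut4: cttggCaaagtGgaaccCgtCttCactccC
Ada: ggCttCctGgcCaaGtttgaCtaCtaCatG
Espn: ccagtCttGgtGtgGctGgtGagCtttgca
Ndrg2: atCctGcaGtaCctaaatttCtctacaata
Ak4: gaagcCctGgaCggaatCtgtgatgtGgaC
In Cadm1 (chr9:47530173-47857637, plus strand) these are codons 383 to 392, in a window with a mean hydropathy of 3.16, in the annotated coding sequence of a single-pass membrane protein. The windows of Lama5 (chr2:180176373-180225859, minus strand) and Tut4 (chr4:108459426-108559421, plus strand), at 1.82 and 1.63, passed the limit of 1.6 only narrowly, and Tut4 is not a membrane protein. None of the 4 higher genes reached the limit, with 0.863 in Ada, 0.958 in Espn, 1.53 in Ndrg2 and 1.27 in Ak4. GC at the third codon position did not separate these 7 genes, at 34.9% for Tut4 and 75.2% for Espn.

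The number of genes called depended on single libraries. It was 11 higher and 13 lower without Rptor fl/fl mRNA line 1, and 404 higher and 545 lower without SCe footprint library 1. Of the 302 calls, 9 higher and 10 lower were kept in all 11 fits that left out 1 library. The higher genes were Ada, Ak4, Arhgap31, Ckb, Eno1b, Espn, Khdc1a, Ndrg2 and Zfp990, and the lower genes were Atp11a, Cadm1, Ctrb1, Emp1, Epha2, Il10rb, Lama5, Mapk8ip3, Nrp2 and Tut4. Mapk8ip3, which encodes a scaffold for motor proteins, had footprints at 3.5, 2.71 and 3.66 CPM against 13.9, 12.8 and 20.0 CPM on near-equal mRNA (-0.07 ± 0.17), with a translation efficiency change of -2.22 ± 0.27 (adjusted p = 0.00517). Espn, which encodes the actin-bundling espin of microvilli, had mRNA at 7.05 and 8.80 CPM against 49.7, 43.2 and 41.9 CPM and footprints at 41.3, 42.0 and 44.1 CPM against 63.5, 62.9 and 65.9 CPM, with a change of 1.91 ± 0.20 (0.00291). These 19 genes were singled out after their values were seen, and not all of them kept their call under the other settings. Over all 25 alternatives, Mapk8ip3 was kept in 21 and Ndrg2 in 23, for example. The sign of the change turned for 5 of the 302 genes when 1 transcript per gene was used and for 8 when an effective length offset was used. The other alternatives refit mostly the same libraries in which the 302 were chosen, so that kept signs there are no sign of stability.

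**Figure D5:**
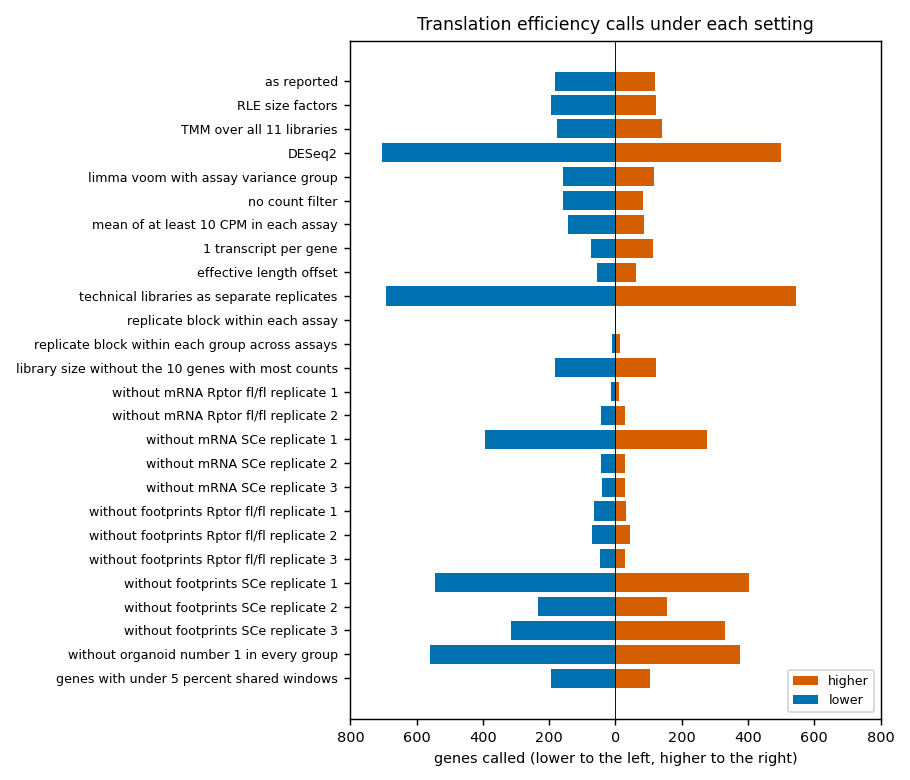
Number of genes with higher (orange, to the right) and lower (blue, to the left) translation efficiency in organoids labelled Rptor fl/fl under the reported setting and the 25 alternatives. The reported counts are 119 and 183, and leaving out single libraries moved them between 11 and 404 and between 13 and 545.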

How the data were processed

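Data of 2 assays were used: Ribo-seq after haemagglutinin pulldown and RNA-seq, each of organoids labelled Rptor fl/fl and SCe. The authors trimmed footprint reads with cutadapt and quantified both assays with Salmon on GENCODE vM21, against whole mRNAs for RNA-seq and against sequences cut to their coding part, without duplicates, for footprints; the submitters' processing notes name cutadapt 1.18, Salmon 1.1.0 and mm10. A gene with near-identical copies can thus be counted differently in each assay. The deposited values were estimated counts per transcript entry, coding sequences being entered apart from 5′ untranslated regions for footprints. Estimated counts on coding entries (footprints) or transcripts (mRNA) were added up for each gene, as were the 2 technical libraries of a line, and then rounded. The deposited entry and effective lengths were used only in 1 alternative. The authors' own table of translation efficiency changes, which holds fold changes and p-values, and the libraries of other conditions were not used here.

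Genes passing edgeR's expression filter in each assay were fitted with TMM factors within each assay, and the interaction of assay and group was tested with the quasi-likelihood F test (edgeR 4.0.16, limma 3.58.1, R 4.3.3), adjusted by Benjamini-Hochberg over 10747 genes at 0.05. The study used RiboDiff, another count model of the same interaction, which was not run. The labels number the organoids but do not say that they were independent cultures, so p-values measure the spread between these libraries. Alternatives included DESeq2 1.42.0, limma voom, other scalings, filters, gene values and blocks, and leaving out each library. Footprint counts were low (1106178 reads in the smallest library), and intervals for genes at 0 counts cover counting error only.

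Genes were named by rule: the 10 largest changes each way among called genes with a mean of at least 10 CPM in each assay, at most 3 called genes per list by adjusted p, Rptor and Rpl22. Marker genes that the study measured in other comparisons, and Map3k20, were named as well. Members and lists were chosen with earlier results of these data known. Lists are described by counts and medians without a set test. Results for 2 genes and 1 sequence are not reported here.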

Additional observations from a re-analysis of the deposited data

How the results depend on the processing

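The settings that moved a count of genes by more than 1.5 times were as follows. DESeq2 called 501 genes higher and 705 lower in translation efficiency. Limma voom called 2736 higher and 2538 lower in mRNA. With 1 transcript per gene, 73 were lower in translation efficiency, 690 higher and 827 lower in footprints, and 536 higher and 629 lower in mRNA. With an effective length offset, 61 were higher and 55 lower in translation efficiency, 717 higher and 780 lower in mRNA, and Tcirg1 turned from -0.86 to 0.93 with an adjusted p of 0.62. With technical libraries as separate replicates, 546 and 693 were called in translation efficiency and 2385 and 2431 in mRNA. The share of higher among all calls was 60.5% with 1 transcript per gene and 52.6% with the offset, against 39.4% as reported. Scaling by RLE or by TMM over all libraries, both filters and leaving the 10 most counted genes out of library sizes kept every such count within 1.5 times.

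With a replicate block (the organoid number) within each assay, 2 genes were higher and 2 lower in translation efficiency, 782 and 1053 in footprints and 767 and 787 in mRNA. With the replicate block within each group across assays these were 15 and 12, 491 and 521, and 617 and 591. The labels do not say that a number marks a shared source. Deviations of same-numbered libraries correlated at 0.47 and 0.47 between groups for mRNA and at -0.07, 0.02 and 0.11 for footprints. Between assays they correlated at 0.26, 0.13 and 0.21 in SCe and at 0.08 and 0.04 in Rptor fl/fl. With 2 Rptor fl/fl mRNA lines, the deviations of 1 mirror those of the other, so their values are not separate agreements. The unlike-numbered mRNA pair of Rptor fl/fl line 2 and SCe library 3 was at 0.42. All 3 same-numbered SCe pairs between assays were over 0.1, the other same-numbered pairs only in part. Unlike-numbered SCe pairs over 0.1 were mRNA library 2 with footprint library 3 (0.18) and mRNA library 3 with footprint library 2 (0.15). SCe pairs of library 1 with an unlike number were negative, from -0.15 to -0.27. Y-linked genes were near 0 in each library numbered 1. The counts reported take no account of a possible pairing by number, and these values cannot show whether there is one.

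Leaving out 1 library at a time gave 11 to 404 higher and 13 to 545 lower in translation efficiency, 824 to 1620 and 1242 to 1890 in footprints and 634 to 2178 and 659 to 2143 in mRNA. The translation efficiency counts fell by over 1.5 times without either Rptor fl/fl mRNA line (11 and 13 without line 1, 29 and 44 without line 2), SCe mRNA library 2 (28 and 44) or 3 (28 and 41), or footprint library 1 (33 and 64), 2 (45 and 71) or 3 (28 and 48) labelled Rptor fl/fl. They rose by over 1.5 times without SCe mRNA library 1 (276 and 395), or SCe footprint library 1 (404 and 545) or 3 (332 and 315). Chosen after the data were seen, a fit without the libraries numbered 1 of every group called 377 and 559, and genes with under 5% shared windows alone gave 105 and 195. Why the counts move so far was not tested. Footprint depth limits genes with few counts in SCe.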
